A study of Mus musculus with 24 samples.

Results

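The genes described here are the type 2 cytokines of mouse chromosome 11 and the factors around them: Il3, Csf2, Il4, Il5 and Il13, which lie in a cluster on that chromosome, the anti-inflammatory cytokine gene Il10, the transcription factor genes Gata3, Maf and Epas1, and the interleukin-4 receptor chain gene Il4ra. They were chosen by symbol, and all 10 of 10 were found among the 22180 genes measured. Where a gene had several probe sets (sets of short oligonucleotides that read its RNA), which was so for 3 of the 10, the one whose mean over the arrays was highest stands for the gene.

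RNA came from naive CD4 T cells of TRIM28 knockout mice (KO) and of wild-type littermates (WT), enriched with magnetic beads and then sorted on a flow cytometer. TRIM28 is a corepressor that zinc finger proteins recruit to silence chromatin. Cells were taken at 0 h or after 4, 24 or 72 h on plate-bound antibody to CD3 with soluble antibody to CD28, and no cytokine that would steer them to a T helper fate is named in the labels. Each of the 8 groups of genotype and time has 3 arrays, 24 in all. The sources used here do not say how Trim28 was deleted, whether the deletion was limited to T cells, or which strain and age the mice were. Values are log2 signals, so a difference of 1 means a 2-fold change.

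Type 2 helper T cells make IL-4, IL-5 and IL-13, which act on B cells, eosinophils and epithelia in allergy and in defence against worms. GATA3 is their master transcription factor, MAF and NFAT proteins act at the Il4 gene, and IL-4 feeds back through its receptor and STAT6. IL-3 and GM-CSF, the product of Csf2, are growth factors for myeloid cells that activated T cells secrete whether or not they have become type 2 cells. Epas1 encodes HIF-2 alpha, an oxygen-regulated transcription factor.

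Il3 and Csf2 rose strongly by 72 h in both genotypes, Il13 rose a little, and Il4 and Il5 stayed at the lowest signals the arrays give. Gata3, Maf, Il4ra and Epas1 fell. KO and WT cells differed in few of the 10 genes: Epas1 was lower in unstimulated KO cells and went up at 4 h in KO cells, and Il4ra was higher in KO cells at 24 h.

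The promoters of the 5 clustered cytokine genes are shown because these genes lie in 1 cluster yet ranged from a 24.4-fold rise in signal to no mean above the floor. The sequences are the 250 bases before each gene's start in RefSeq (GRCm38.p6), written 5′ to 3′ on the gene's own strand. Capitals mark GGAAA or its reverse complement TTTCC, the core that NFAT proteins, the factors activated by calcium after T cell receptor engagement, can bind. RefSeq promoters were matched for 7 of the 10 genes, those of the cluster, Gata3 and Il4ra; Il10, Maf and Epas1 had none matched.
Il3, chr11:54267280-54267529, minus strand: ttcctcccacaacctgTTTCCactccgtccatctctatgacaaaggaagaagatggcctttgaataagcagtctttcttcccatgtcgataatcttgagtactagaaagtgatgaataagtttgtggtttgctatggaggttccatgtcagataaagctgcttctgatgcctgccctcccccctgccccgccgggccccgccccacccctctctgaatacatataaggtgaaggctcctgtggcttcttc
Csf2, chr11:54249900-54250149, minus strand: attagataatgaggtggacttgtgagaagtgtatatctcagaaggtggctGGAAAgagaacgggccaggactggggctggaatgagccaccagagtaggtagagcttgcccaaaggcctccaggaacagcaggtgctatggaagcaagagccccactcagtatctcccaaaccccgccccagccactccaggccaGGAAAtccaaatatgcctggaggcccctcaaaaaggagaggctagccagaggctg
Il4, chr11:53618666-53618915, minus strand: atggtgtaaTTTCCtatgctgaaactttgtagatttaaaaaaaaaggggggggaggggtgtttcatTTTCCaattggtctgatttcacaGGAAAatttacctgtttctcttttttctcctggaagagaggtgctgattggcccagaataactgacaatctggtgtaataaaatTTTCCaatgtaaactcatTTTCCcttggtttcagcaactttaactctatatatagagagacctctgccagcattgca
Il13, chr11:53634703-53634952, minus strand: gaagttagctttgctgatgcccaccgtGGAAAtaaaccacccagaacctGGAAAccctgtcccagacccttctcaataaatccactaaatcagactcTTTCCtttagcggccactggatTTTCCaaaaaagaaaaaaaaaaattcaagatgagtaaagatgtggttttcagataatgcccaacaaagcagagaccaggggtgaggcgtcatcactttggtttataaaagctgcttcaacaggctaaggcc
Il5, chr11:53720544-53720793, plus strand: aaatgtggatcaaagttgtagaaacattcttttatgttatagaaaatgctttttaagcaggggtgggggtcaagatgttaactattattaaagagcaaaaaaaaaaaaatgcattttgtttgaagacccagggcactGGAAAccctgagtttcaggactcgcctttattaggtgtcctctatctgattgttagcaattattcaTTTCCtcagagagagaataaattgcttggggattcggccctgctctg

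The Il4 promoter held 5 copies of the core and the Il13 promoter 4, against 2 each for Csf2 and Il5 and 1 for Il3. Among 32851 RefSeq promoters of the same length, 55.6% held at least 1 copy on either strand, 21.4% at least 2 and 1.6% at least 4. The letters GATA or their reverse complement TATC, the core that GATA3 binds, occurred 3 times before Csf2, 2 times before Il3, 1 time each before Il5 and Il13 and 0 times before Il4, and in 53.6% of all promoters. TGANTCA, the AP-1 letters, occurred before none of the 5 genes and in 6.7% of all promoters. GGAAA and GATA sites cannot share letters. The promoter with the most NFAT cores, that of Il4, belonged to a gene whose means stayed at the floor. The one with the fewest, that of Il3, belonged to a gene whose signal rose 12.1-fold in WT by 72 h. These are matches of letters only, not measured binding.

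The labels were checked first. Trim28 itself was lower in KO arrays at every time, with KO minus WT at -2.62 at 0 h, where the KO mean was 5.16 and the WT mean 7.78, and -3.58 at 24 h. Array medians lay between 3.59 and 3.76. Markers of CD4 T cells averaged 9.99 to 10.49 on every array. Arrays numbered 3 had the Y-linked levels of male cells in all 8 groups and arrays 1 and 2 the Xist levels of female cells, so sex is balanced over the groups. The labels do not tie the arrays of a group to separate animals, so p-values measure only the spread between these arrays. Signs of other cells moved with genotype: B cell markers averaged 4.42 to 5.11 on the KO arrays at 0 h against 3.83 to 4.74 on the WT arrays, with 2 of 8 markers higher by the test, and regulatory T cell markers 6.41 to 6.66 against 5.78 to 5.97, with 4 of 8 higher. By the same test 2.34% of all genes differed at 0 h. In RNA of whole samples, fewer cells of a type and less RNA per cell cannot be told apart.

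Low signals need a reference. The arrays carry no detection call, so the floor was set from 1105 olfactory receptor genes, which T cells are not known to use: a gene counts as at the floor in a group when its mean lies at or below the 95th percentile of theirs, 3.50 to 3.71 depending on the group. Il4 and Il5 were at the floor in 8 of 8 groups, Csf2 in 6 and Il3 in 1, KO cells at 4 h. The other 6 genes were above it in all groups, Il13 only just so at 0 h, with 3.63 in KO against a floor of 3.61.

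**Figure D1:**
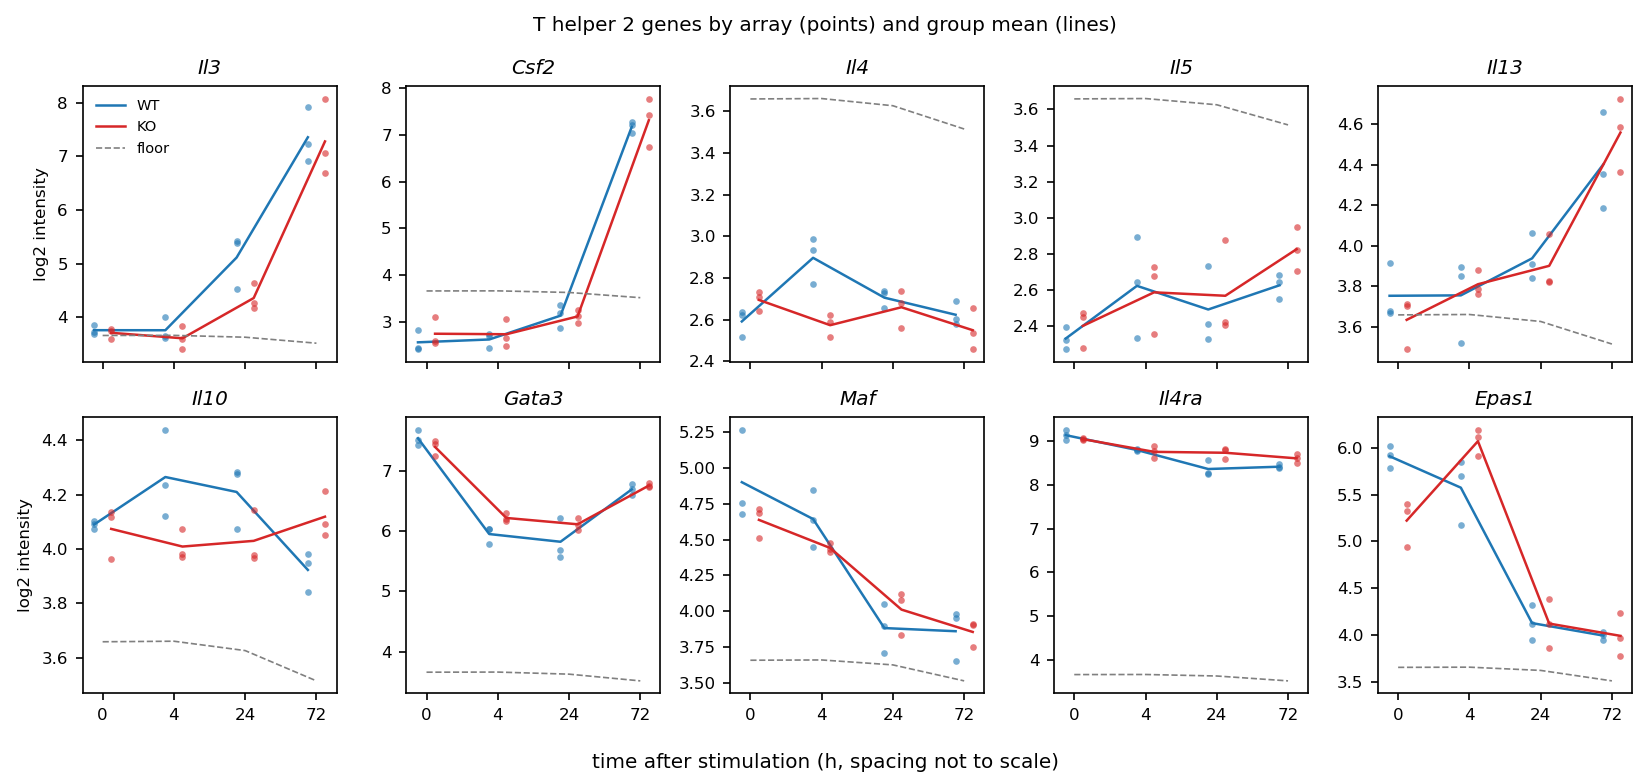
Log2 signal of the 10 genes (vertical axes, with a separate scale in each panel) by time after stimulation (horizontal axes, spacing not to scale) in WT (blue) and KO (red). Points are single arrays, lines join group means of 3 arrays, and the dashed line is the floor averaged over both genotypes. Il3 and Csf2 climb to above 6.6 on all 6 arrays at 72 h, Il4 and Il5 stay below the floor, and Gata3 dips and partly returns.

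Il3, which encodes interleukin 3, was near the floor before stimulation, at 3.73, 3.86 and 3.68 on the WT arrays and 3.60, 3.78 and 3.75 on the KO arrays. At 4 h it read 3.61, 3.65 and 4.001 in WT and 3.59, 3.83 and 3.40 in KO. None of these arrays stood out, and genotypes and times overlapped. By 24 h the WT arrays read 4.52, 5.42 and 5.39 and the KO arrays 4.16, 4.65 and 4.26. At 72 h they read 6.91, 7.92 and 7.24 in WT and 7.06, 8.08 and 6.70 in KO. All arrays of 24 h lay above all arrays of 0 h in the same genotype, and all arrays of 72 h above those of 24 h, while the genotypes overlapped at both late times, at 24 h because WT array 1 lay below KO array 2.

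Against 0 h, Il3 rose in WT by 1.35 (SE 0.268) at 24 h and by 3.60 at 72 h, a 12.1-fold change (limma, Benjamini-Hochberg adjusted p = 0.000139 and 1.08e-11). In KO it was 0.65 higher at 24 h, which did not pass (adjusted p = 0.0652, or 0.0229 to 0.0464 when WT array 1 of 24 h, WT array 2 of 72 h or KO array 2 or 3 of 72 h was left out), and rose by 3.57 at 72 h, 11.9-fold (adjusted p = 1.38e-11). As the 0 h signals lie near the floor, these folds are those of the signals and need not be those of the RNA. The KO change at 24 h passed with low genes left out (adjusted p = 0.0435) or with the compared groups alone (adjusted p = 0.00278). The step from 4 to 24 h in KO was 0.75 (adjusted p = 0.0362), and 0.61 to 0.80 (adjusted p = 0.0586 to 0.166) without KO array 1 or 3 of 4 h or KO array 2 or 3 of 24 h. KO minus WT at 24 h was -0.75, with a 95% interval from -1.31 to -0.20 and adjusted p = 0.0714, or 0.0463 with low genes left out and 0.0445 with the compared groups alone. Without WT array 1 of 24 h that difference was -1.05 with adjusted p = 0.0184, and without KO array 2 of 72 h, which only changes the shared spread, -0.75 with 0.026. The 2 genotypes' responses at 24 h differed by -0.71 (SE 0.379, adjusted p = 0.331), so a slower rise in KO cells was not shown by the test of that difference. At 72 h KO minus WT was -0.08, interval -0.63 to 0.47, and it was 0.03 to 0.21 without WT array 2 or KO array 1 or 3 of that time.

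Csf2, which encodes GM-CSF, was at the floor through 24 h in both genotypes. Its WT arrays read 2.82, 2.45 and 2.41 at 0 h and 3.35, 3.18 and 2.86 at 24 h, and its KO arrays 2.59, 3.09 and 2.55 and then 3.12, 2.97 and 3.25. At 72 h WT read 7.20, 7.28 and 7.03 and KO 6.74, 7.42 and 7.78. Every array of 72 h was at least 3 units above every earlier array, and the WT arrays lay inside the KO range. The rise from 0 h was 4.61 in WT and 4.57 in KO (SE 0.203 each, adjusted p = 2.57e-16 and 3.5e-16), the largest change among the 10 genes. As the 0 h signals are at the floor, the corresponding folds of 24.4 and 23.8 are those of the signals and not of the RNA. KO minus WT at 72 h was 0.14 (adjusted p = 0.884), and without KO array 3 of 72 h it was -0.09.

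Csf2 at 24 h was 0.57 above 0 h in WT (adjusted p = 0.0257), though still at the floor; without WT array 2 or 3 of 0 h, or WT array 1 or 2 of 24 h, the value was 0.46 to 0.55 and did not pass. A second Csf2 probe set stayed between 2.85 and 3.28 in all groups, at the floor also at 72 h. The averaged signal of both probe sets gave 0.28 at 24 h (adjusted p = 0.132), and rises of 2.42 in WT and 2.44 in KO by 72 h. The Csf2 time course rests on 1 of its 2 probe sets.

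Il13, which encodes the interleukin 13 of airway and gut epithelial responses, rose late and little. Its WT arrays read 3.67, 3.91 and 3.68 at 0 h and 4.66, 4.19 and 4.36 at 72 h. Its KO arrays read 3.49, 3.70 and 3.71 and then 4.73, 4.36 and 4.59. The 6 arrays of 72 h were all above the 6 of 0 h, and the genotypes overlapped at both times. The rise was 0.65 in WT and 0.93 in KO (SE 0.134 each, adjusted p = 0.00022 and 1.76e-06), and the difference between these responses was 0.28 (SE 0.189, adjusted p = 0.592). At 4 and 24 h Il13 differed from 0 h by 0.00 and 0.19 in WT and by 0.18 and 0.27 in KO, none past the threshold. KO minus WT lay between -0.12 and 0.16 at the 4 times, with adjusted p of 0.723 or more.

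Il4, the defining type 2 cytokine, never left the floor. Its highest group mean was 2.90 in WT at 4 h, where the arrays read 2.94, 2.77 and 2.99, against 2.62, 2.59 and 2.52 in KO. The groups did not overlap, and KO minus WT was -0.32 (SE 0.084, adjusted p = 0.0255). The WT change from 0 h was 0.31 (adjusted p = 0.00498). Both lie among signals that olfactory receptor genes also give. The genotype difference lost its call without WT array 1 or 3 or without any of the 3 KO arrays of 4 h (values -0.35 to -0.28, adjusted p = 0.0514 to 0.101) and when arrays 1 and 2 alone were used (-0.25, adjusted p = 0.348).

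Il5, which encodes the growth factor of eosinophils, was at the floor in all 8 groups, with group means of 2.33 to 2.83. The highest were KO cells at 72 h, whose arrays read 2.70, 2.95 and 2.82 against 2.55, 2.65 and 2.68 in WT. These 2 groups did not overlap, but the difference of 0.20 did not pass (adjusted p = 0.605). From 0 h the KO change was 0.43 (adjusted p = 0.0141), lost without KO array 2 of 0 h or of 72 h (0.36 each, adjusted p = 0.0685 and 0.0714), and the WT change was 0.30 (adjusted p = 0.0935).

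Il10, which encodes an inhibitory cytokine made by several helper and regulatory T cells, stayed between group means of 3.92 and 4.26. Its WT arrays read 4.12, 4.23 and 4.44 at 4 h and its KO arrays 4.07, 3.98 and 3.97. At 72 h the order was the other way, with WT at 3.84, 3.98 and 3.95 and KO at 4.09, 4.05 and 4.21. The genotypes did not overlap at either time, yet the differences of -0.26 and 0.20 did not pass (SE 0.105, adjusted p = 0.213 and 0.42). After quantile normalization was applied again the 4 h difference was -0.38 (adjusted p = 0.0347). No time differed from 0 h in either genotype by the test (adjusted p of 0.224 or more). The step from 24 to 72 h was -0.29 in WT, where the arrays did not overlap (limma adjusted p = 0.0433). It kept its call in 18 of 24 fits with an array left out, but most of those arrays lie outside the groups compared. The call was lost without WT array 1 or 2 of 24 h or any of the 3 WT arrays of 72 h (-0.32 to -0.24, adjusted p = 0.0579 to 0.158). Without KO array 1 of 72 h adjusted p was 0.0504. The step did not pass with the compared groups alone (adjusted p = 0.0993), arrays 1 and 2 alone (0.061) or eBayes made robust (0.0554). In KO that step was 0.09 (adjusted p = 0.73).

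Gata3 fell on stimulation and then came back in part. At 0 h it read 7.51, 7.68 and 7.43 on the WT arrays. These became 6.04, 6.03 and 5.79 by 4 h, 6.22, 5.68 and 5.58 by 24 h, and 6.78, 6.60 and 6.69 by 72 h. In KO it read 7.49, 7.45 and 7.25, then 6.16, 6.30 and 6.20, then 6.21, 6.10 and 6.03, and finally 6.80, 6.74 and 6.73. In both genotypes all stimulated arrays lay below all arrays of 0 h, and the arrays of 72 h lay between those of 0 h and those of 4 and 24 h without overlap.

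The order of the Gata3 means was thus 0 h, 72 h, 4 h and 24 h in both genotypes, and the neighbours 4 and 24 h did not differ beyond their spread, by -0.13 in WT and -0.10 in KO (adjusted p = 0.484 and 0.63). The changes from 0 h were -1.59, -1.72 and -0.85 at 4, 24 and 72 h in WT and -1.18, -1.28 and -0.64 in KO (limma, SE 0.122 each, adjusted p of 8.61e-05 or less). The return from 24 to 72 h was 0.87 in WT and 0.64 in KO (adjusted p = 2.95e-06 and 0.000283). With averaged probe sets it was 0.47 in WT (adjusted p = 0.00517) and 0.33 in KO, which did not pass (adjusted p = 0.0794). A second Gata3 probe set fell too, from 4.91 to 4.11 in WT and from 4.99 to 4.18 in KO by 4 h, but stayed between 4.21 and 4.28 thereafter, without the return.

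KO minus WT for Gata3 was 0.27 at 4 h and 0.29 at 24 h, and neither passed (adjusted p = 0.279 and 0.141). The genotypes did not overlap at 4 h and did at 24 h, where WT array 1, at 6.22, was above all KO arrays. Without that array the 24 h difference was 0.49 (adjusted p = 0.0044) and the difference between the responses 0.63 (adjusted p = 0.0108), against 0.43 (SE 0.173, adjusted p = 0.15) with it. The same array was low for Il3. Regulatory T cell markers, which include none of the 10 genes, averaged 7.44 to 7.87 on the KO arrays and 7.15 to 7.21 on the WT arrays at 24 h, and their part in the Gata3 values was not tested.

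Maf, the gene of the c-MAF factor of Il4 and Il10, also fell. Its WT arrays read 5.27, 4.68 and 4.76 at 0 h, then 3.71, 3.90 and 4.05 by 24 h, then 3.98, 3.65 and 3.95 by 72 h. Its KO arrays read 4.69, 4.51 and 4.72, then 4.12, 3.83 and 4.08, then 3.91, 3.91 and 3.75. In each genotype the late arrays were all below those of 0 h, and those of 24 and 72 h overlapped. The changes at 24 and 72 h were -1.02 and -1.04 in WT and -0.63 and -0.78 in KO (SE 0.143 each, adjusted p of 0.000838 or less). At 4 h the changes were -0.26 and -0.20, and neither passed. KO minus WT was -0.26, -0.20, 0.13 and -0.01 from 0 to 72 h (adjusted p of 0.478 or more). A second Maf probe set was at the floor in all groups, with means of 2.99 to 3.38.

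Il4ra encodes the chain that IL-4 and IL-13 receptors share. It read 9.02, 9.14 and 9.25 in WT and 9.02, 9.05 and 9.08 in KO at 0 h, and 8.82, 8.79 and 8.78 in WT and 8.62, 8.88 and 8.77 in KO at 4 h. At 24 h it read 8.58, 8.24 and 8.27 in WT and 8.79, 8.60 and 8.81 in KO, and at 72 h 8.47, 8.37 and 8.40 in WT and 8.71, 8.49 and 8.62 in KO. The KO arrays were above the WT arrays without overlap at 24 and 72 h and mixed with them before.

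KO minus WT was 0.37 at 24 h, a 1.29-fold difference (SE 0.085, adjusted p = 0.00461), and 0.19 at 72 h (adjusted p = 0.266). From 0 h Il4ra changed by -0.34, -0.78 and -0.72 in WT and by -0.29, -0.31 and -0.44 in KO at 4, 24 and 72 h, all past the threshold, except that the KO change at 4 h was -0.22 (adjusted p = 0.0752) without KO array 1 of 4 h. The WT level went on falling from 4 to 24 h, with a change of -0.43 (adjusted p = 0.000183), while the KO change over that step was -0.02 (adjusted p = 0.913). The responses to 24 h differed by 0.46 (SE 0.121, adjusted p = 0.0215).

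The 24 h difference in Il4ra passed with each single array left out (0.31 to 0.48), but not with arrays 1 and 2 alone (0.28, adjusted p = 0.156). When KO array 2 stood for all KO arrays, that difference was 0.24. The difference between the responses lost its call without WT array 3 of 0 h, WT array 2 or 3 of 24 h or KO array 1 or 3 of 24 h (0.40 to 0.44, adjusted p = 0.0507 to 0.0662). Naive T cell markers also stayed higher in KO cells at 24 h, averaging 8.25 to 8.94 against 7.67 to 7.92 in WT, with 3 of 5 higher by the test, and 1 of 8 B cell markers was higher. At that time 11.3% of all genes passed. The part of naive T cells or B cells in the Il4ra value was not tested.

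Epas1 differed between genotypes at 0 h and in its early response. At 0 h it read 5.78, 6.02 and 5.93 in WT and 5.4, 4.94 and 5.33 in KO. At 4 h it read 5.18, 5.84 and 5.70 in WT and 5.91, 6.11 and 6.19 in KO. The groups did not overlap at either time, with KO lower at 0 h and higher at 4 h. At 24 h both genotypes were low, at 4.12, 3.95 and 4.32 in WT and 4.39, 3.87 and 4.12 in KO, and at 72 h they read 4.04, 3.96 and 4 in WT and 3.78, 4.23 and 3.97 in KO. At these late times the genotypes overlapped.

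KO minus WT was -0.69 at 0 h, so that KO cells had 0.622 of the WT signal (SE 0.164, adjusted p = 0.0203), and 0.50 at 4 h (adjusted p = 0.0962). From 0 to 4 h Epas1 rose in KO by 0.85 (1.8-fold, adjusted p = 0.000147) and in WT the change was -0.34 (adjusted p = 0.124). These responses differed by 1.18, interval 0.70 to 1.66 (SE 0.231, adjusted p = 0.00891). By 24 and 72 h it had fallen, with changes from 0 h of -1.78 and -1.91 in WT and -1.10 and -1.23 in KO (adjusted p of 3.63e-06 or less), and KO minus WT was -0.005 and -0.003 (both intervals -0.34 to 0.33).

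The order of Epas1 means in WT was 0, 4, 24 and 72 h, with neighbours 0 and 4 h and neighbours 24 and 72 h not differing beyond their spread. In KO it was 4, 0, 24 and 72 h, and only 24 and 72 h did not differ (-0.13, adjusted p = 0.743). The 0 h difference lost its call without WT array 2 or 3 or KO array 2 of 0 h (-0.63, -0.68 and -0.55, adjusted p = 0.103, 0.0598 and 0.14). The 4 h difference passed without WT array 2 of 4 h (0.63, adjusted p = 0.0376). The difference between the responses at 4 h kept its call with any single array left out (0.98 to 1.32, adjusted p of 0.0394 or less) and not with arrays 1 and 2 alone (1.23, adjusted p = 0.153).

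At 0 h, 3 of 9 myeloid markers were higher in KO, where 2.34% of all genes passed, while Epas1 was lower. The list averaged 3.81 to 4.38 in KO against 3.52 to 3.67 in WT, with 4 and 7 of the 9 at the floor. At 4 h 3 of 9 were again higher in KO, where 4.13% of all genes passed, while Epas1 was 0.50 higher without passing. The list then averaged 3.56 to 4.14 in KO against 3.14 to 3.56 in WT, with 4 and 8 at the floor. Naive T cell markers averaged 10.24 to 10.32 in KO against 10.44 to 10.6 in WT at 0 h, with 0 of 5 past the test. At 4 h they averaged 9.06 to 9.43 against 8.87 to 9.0, with 1 of 5 higher in KO. Natural killer and NKT cell markers averaged 3.44 to 3.69 in KO against 3.73 to 4.04 in WT at 0 h, with 1 of 5 lower. At 4 h these averaged 3.63 to 3.75 against 3.53 to 3.72, with 0 past the test. The part of any of these cells in the Epas1 values was not tested.

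**Figure D2:**
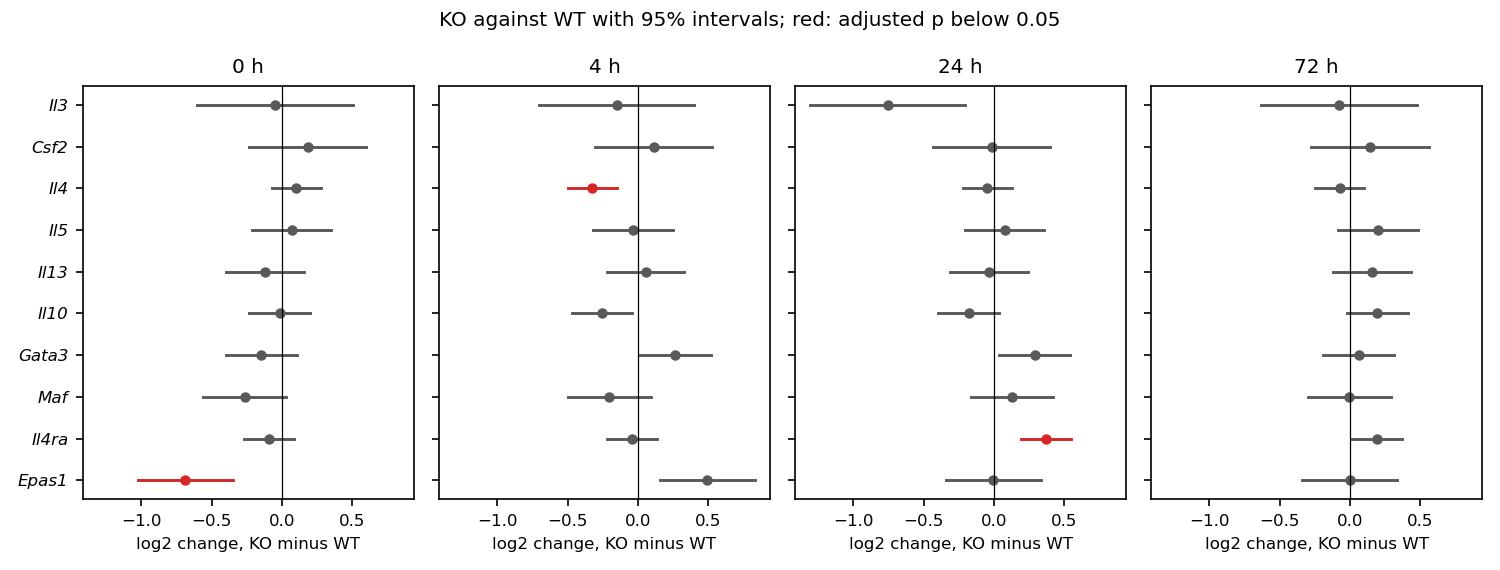
Differences in log2 signal between KO and WT cells (horizontal axes) for the 10 genes at 0, 4, 24 and 72 h, with 95% intervals from limma. Red points have an adjusted p below 0.05: Epas1 at 0 h (-0.69), Il4 at 4 h (-0.32, at the floor) and Il4ra at 24 h (0.37), and no gene at 72 h.

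Taken over the 10 genes, KO and WT differed by the test in 1 gene at 0 h (Epas1, lower), 1 at 4 h (Il4, lower, at the floor), 1 at 24 h (Il4ra, higher) and 0 at 72 h, by limma. At 72 h the count was 1 at an unadjusted limma p below 0.05, for Il4ra. Of all 22180 genes 2.34%, 4.13%, 11.3% and 6.33% passed at these times. The arrays of the genotypes did not overlap for 2, 4, 1 and 3 of the 10 genes, against 16.9%, 16.2%, 27.2% and 24.6% of all genes. The median difference of the 10 was -0.07, -0.04, -0.01 and 0.10, beside 0.00, 0.00, -0.05 and 0.01 over all genes. These shares were not compared by a test. The counts over all genes themselves moved with single arrays: from 518 at 0 h to 314 and 333 without WT array 2 and KO array 1 of 0 h, from 917 at 4 h to 601 without KO array 1 of 4 h, and from 2501 at 24 h to 1269 without KO array 1 of 24 h.

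Responses differed between genotypes for Epas1 at 4 h and Il4ra at 24 h and for 0 of the 10 at 72 h, against 0.726%, 5.87% and 3.91% of all genes. At 72 h the count was 2 at an unadjusted limma p below 0.05, Epas1 and Il4ra, and Epas1 passed after quantile normalization was applied again (0.76, adjusted p = 0.0295). The 1302 genes behind the 24 h share were 700 in number without KO array 1 of 24 h.

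Stimulation itself moved more of them. In WT cells at 4 h, 1 of the 10 was higher and 2 were lower, where 16.8% of all genes were higher and 17.8% lower. By 24 h the WT counts were 2 higher and 4 lower (23.2% and 16.5% of all genes), and by 72 h 3 higher and 4 lower (22.2% and 18.3%). In KO cells at 4 h, 1 was higher and 2 were lower (15.1% and 16.0%). The KO counts were 0 higher and 4 lower by 24 h (17.6% and 16.5%) and 4 higher and 4 lower by 72 h (21.1% and 18.6%). The counts of 4 in 10 are larger shares than those of all genes, and the difference in share was not tested. The genes that fell at 24 and 72 h were Gata3, Maf, Il4ra and Epas1 in both genotypes. Those that rose at 72 h were Il3, Csf2 and Il13 in both. Il5 is also counted in KO at 72 h, though its mean stayed at the floor. The gene counted as higher in WT at 4 h, Il4, was at the floor too. Of the genes counted as higher in WT at 24 h, Il3 was above the floor and Csf2 at it. Where 0 rose in KO at 24 h, 1 gene, Il3, was higher at an unadjusted limma p below 0.05.

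Among the 10, for genes with group means at least 1 apart, the pattern over the 24 arrays was most like that of Ccdc18 (Pearson r = 0.976) and Gas2l3 (0.974) for Il3, and of Fads2 and Gpt2 (0.982 each) for Csf2. For Gata3 the most similar genes were Pik3cg (0.955), which encodes a lipid kinase subunit, and Jun (0.949), which encodes an AP-1 subunit. For Maf they were Tgoln1 (0.946) and Btg1 (0.925), an antiproliferative gene, and for Epas1 Zdhhc17 (0.951) and Ttc28 (0.948). These were the 2 highest for each gene among 5163 candidates, and all points share the same 4 times, so these values describe time courses.

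The cytokine cluster holds other genes between its members. In RefSeq order the 16 protein-coding genes are Septin8, Kif3a, Il4, Il13, Rad50, Il5, Irf1, Slc22a5, Slc22a21, Slc22a4, Pdlim4, P4ha2, Csf2, Il3, Acsl6 and Meikin, and the 11 neighbours were all measured. Rad50, a DNA repair gene whose introns are known to hold a control region of the type 2 cytokines, rose by 1.04 in WT and 0.89 in KO from 0 to 72 h (adjusted p = 2.75e-11 and 6.93e-10). Pdlim4, between Slc22a4 and P4ha2, changed by -2.54 and -2.70 (adjusted p = 3.78e-14 and 1.29e-14) while Csf2 rose.

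Among the neighbours, 1 differed between genotypes at 4 h, 1 at 24 h and 2 at 72 h. The shares of all genes that passed at these times were 4.13%, 11.3% and 6.33%. Neither these counts nor those of the lists below were compared with such shares by a test. Irf1, an interferon-induced transcription factor gene between Il5 and Slc22a5, was 0.73 higher in KO at 4 h (7.13 against 6.39, adjusted p = 0.00552) and lower at 72 h, at -0.56 (7.11 against 7.67, adjusted p = 0.0306). Acsl6, a fatty acid ligase gene next to Il3, was lower in KO at 24 h (3.77 against 4.29, adjusted p = 0.00458) and at 72 h (4.09 against 4.87, adjusted p = 7.68e-05), where its neighbour Il3 did not differ. The other 9 neighbours passed at no time.

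**Figure D3:**
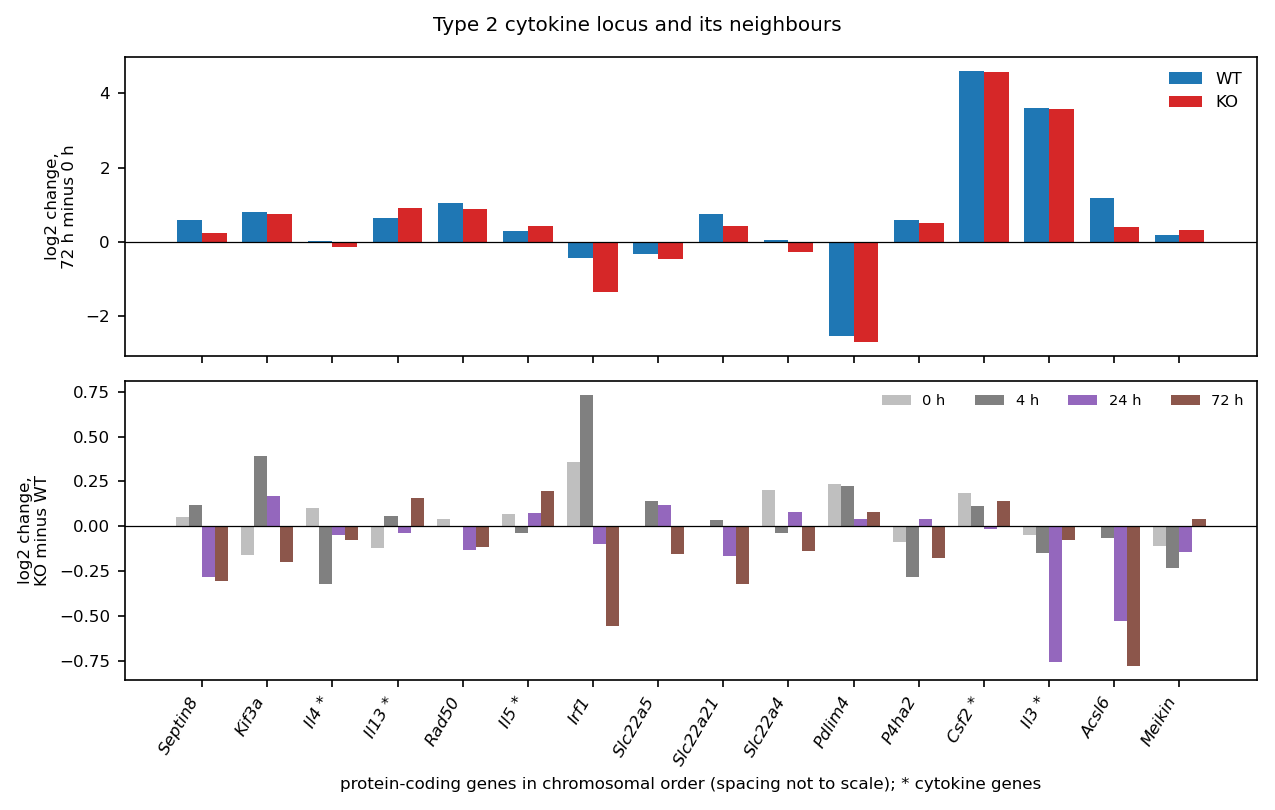
The 16 protein-coding genes of the chromosome 11 cytokine cluster in RefSeq order (horizontal axis, not to scale; asterisks mark the 5 cytokine genes). The upper panel shows the log2 change from 0 to 72 h in WT (blue) and KO (red), where Csf2 and Il3 rise by over 3 and Pdlim4 falls. The lower panel shows KO minus WT on the log2 scale at 0, 4, 24 and 72 h, where the bars past an adjusted p of 0.05 are Il4 and Irf1 at 4 h, Acsl6 at 24 h, and Acsl6 and Irf1 at 72 h; bars are fitted differences of group means of 3 arrays, drawn without error bars, whose SE is at most 0.268 (Il3).

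Of 7 receptor genes for these cytokines, 2 were higher in KO at 24 h and 2 lower at 72 h. Among all genes 11.3% and 6.33% passed at these times. Il10ra, the ligand-binding chain of the IL-10 receptor, was 0.71 higher in KO at 24 h (adjusted p = 0.00463) and lower at 72 h, at -1.91 (5.21 against 7.13, adjusted p = 5.99e-09), while Il10 itself did not pass. Il10rb, its partner chain, was 0.47 higher at 24 h (adjusted p = 0.000773). Csf2ra, the GM-CSF receptor's specific chain, was lower in KO at 72 h (6.23 against 6.76, adjusted p = 0.0386), when Csf2 did not differ. Csf2rb, Il5ra and, in 6 of 8 groups, Csf2rb2 were at the floor.

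Among 15 measured genes of IL-4 receptor and T cell receptor signalling, 2 were higher in KO at 0 h. Then 2 were higher and 1 lower at 4 h, 3 higher and 2 lower at 24 h, and 1 lower at 72 h. The shares of all genes that passed were 2.34%, 4.13%, 11.3% and 6.33%. Stat6, which carries the IL-4 signal, passed at none of the times, with differences of 0.05, -0.05, -0.17 and 0.03. The feedback inhibitor Socs3 was 0.70 higher at 0 h and 0.92 higher at 24 h (adjusted p = 0.0479 and 0.00183), and Socs1 0.61 higher at 24 h (adjusted p = 0.00396). Stat5a and Stat5b, which relay IL-2 and other cytokines, were 0.50 and 0.38 higher at 4 h (adjusted p = 0.00236 and 0.00135). At 72 h Stat5b was lower in KO, at -0.27 (adjusted p = 0.0188). Nfatc1, an NFAT gene, was lower at 4 and 24 h, at -0.31 and -0.36 (adjusted p = 0.0371 and 0.00559).

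Of 22 other transcription and chromatin factors of helper T cells, 1 was higher in KO at 0 h and 3 were higher at 4 h. Then 3 were higher and 3 lower at 24 h, and 2 higher and 5 lower at 72 h. Over all genes 2.34%, 4.13%, 11.3% and 6.33% passed at the 4 times. Tbx21, which encodes the type 1 factor T-bet that opposes GATA3, was lower in KO at 24 h, at -0.74 (4.62 against 5.36, adjusted p = 0.00472). At 72 h it was lower too, at -2.35 (5.65 against 8.004, adjusted p = 2.98e-10), when Gata3 differed by 0.06 (interval -0.19 to 0.31). Nfil3, a factor that acts on type 2 and Il10 genes, was lower at 72 h, at -1.36 (adjusted p = 1.08e-06). Bhlhe40, which supports Csf2 and restrains Il10 in T cells, was 0.73 higher in KO at 0 h and 0.50 at 4 h (adjusted p = 0.0022 and 0.0377). Batf was 0.44 higher at 4 h, and Satb1 and Gfi1 were 0.64 and 0.53 higher at 24 h. At 72 h Satb1 was lower in KO, at -0.38 (adjusted p = 0.000201).

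Of 10 measured cytokine and surface genes linked to type 2 cells, 1 was higher in KO at 0 h (Crlf2, by 0.29). At 4 h 1 was lower, and at 72 h 1 was higher and 2 were lower. Of all genes 2.34%, 4.13% and 6.33% passed at these times. Il9, Il31, Il17rb and Ccr3 were at the floor in all groups, as Il4 and Il5 were. Ccr4, a chemokine receptor of type 2 and regulatory T cells, was lower in KO at 4 h, at -1.57 (4.94 against 6.51, adjusted p = 2.25e-07) and 0.77 higher at 72 h (adjusted p = 0.00227). Il6 was lower in KO at 72 h, at -1.98 (4.07 against 6.05, adjusted p = 3.24e-08). Regulatory T cell markers were higher in KO at 72 h too, with 3 of 8 past the test, where 6.33% of all genes passed. Their part in the Ccr4 value was not tested.

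Of 15 partners and targets of HIF factors, 1 was lower in KO at 0 h and 1 higher at 4 h. At 24 h 1 was lower (Slc2a1, the glucose transporter gene, at -0.38), and at 72 h 1 was higher and 3 were lower. The shares over all genes were 2.34%, 4.13%, 11.3% and 6.33%. Car9, the carbonic anhydrase gene of low oxygen, was lower in KO at 0 h, at -0.62 (adjusted p = 0.0349). Pdk1, a kinase gene that keeps pyruvate out of mitochondrial oxidation, was 0.55 higher at 4 h (adjusted p = 0.000104). Epas1 itself was lower at 0 h and 0.50 higher at 4 h without passing. The median difference of the 15 was 0.14 at 0 h, opposite in sign to Epas1, and 0.08 at 4 h. Medians over all genes were 0.004 and 0.003. Any link of these genes to Epas1 was not tested. At 72 h, when Epas1 was low in both genotypes, KO minus WT was -1.45 for Adm, -0.70 for Vegfa, 0.51 for Bnip3 and -0.36 for Hif1a, which encodes the sister factor HIF-1 alpha (adjusted p of 0.0339 or less).

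Other cells that make these cytokines were looked for by their markers. Of 13 mast cell and basophil markers 12 were at the floor in each of the 8 groups, and so were 4 of 4 measured eosinophil markers. Of the 5 measured markers of type 2 innate lymphoid cells 3 were at the floor at 0 h and also at 72 h. Il17rb was among those at the floor. The list, its mean raised by the markers above the floor, averaged 4.20 to 4.33 over the arrays of 0 h. At 72 h it averaged 4.08 to 4.13 in WT and 4.10 to 4.17 in KO. The part of any such cells in the late rise of Il3, Csf2 and Il13 was not tested.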

How the data were processed

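The authors deposited log2 values for 41345 probe sets on 24 Affymetrix arrays. Per the submitters' processing notes they were made with RMA (oligo, R 3.1.0), which subtracts background, brings the arrays to a common distribution and combines the probes of a set. Low signals are compressed by this, and a change shared by every gene is hidden. The sources used here give no further version, filter, batch, depth or detection call. Precision is limited by the number of arrays, 3 in a group.

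Groups came from the sample titles. Of the probe sets, 23521 carry a single symbol in the platform annotation, 1814 several, and 16010 none listed. Entrez IDs tied 23328 to RefSeq (GRCm38.p6), the source of names, gene order and promoters. Keeping 1 probe set for each of the 1082 genes that had more left 22180 genes. A further Gata3 probe set, shared with other genes, was left out.

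A model with a mean for each of the 8 groups was fitted in limma 3.58.1 (R 4.3.3; eBayes, mean-variance trend, 16 residual and 8.81 prior degrees of freedom). Tests are two-sided and adjusted by Benjamini-Hochberg over the 22180 genes, with 0.05 as threshold. A difference between responses is the genotype by time interaction. The scripts were tested on simulated data.

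The genes and lists were chosen with earlier results of these data known. All 10 genes are named. From each list up to 4 genes past the threshold in a KO and WT comparison may be named, largest change first. Stat6, Rad50, Pdlim4, Satb1 at 72 h and the list genes at the floor were named after their values were seen. Where group means of a gene are at least 1 apart, its 2 best correlated genes are named.

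Other settings tried were averaged probe sets, a filter at the 40th percentile, repeated quantile normalization, eBayes made robust or without trend, a fit of the compared groups only, fixed and random blocks, arrays 1 and 2 alone, each array left out, and a floor at the 40th percentile (3.24). KO array 2 as the sole KO array was added after seeing the data. The main fit does not pair same-numbered KO and WT arrays. Their deviations from group means had correlations of 0.03 to 0.17, 6 of 12 over 0.1. These were low, yet all 24 arrays correlated best with the array of their own number in the other genotype. The numbers also go with sex, so they can mark a block that the main fit leaves out. How far sex alone gives these correlations was not tested. Results with the number as a block are given below.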

Additional observations from a re-analysis of the deposited data

Results flagged for a closer look

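The response of Epas1 to 4 h of stimulation differed between the genotypes by 1.18 on the log2 scale (SE 0.231, limma adjusted p = 0.00891 by the interaction of genotype and time). It rose by 0.85 in KO cells, where all 3 arrays of 4 h were above all 3 of 0 h, and changed by -0.34 in WT cells, where the arrays of 0 and 4 h overlapped.

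The response of Il4ra to 24 h differed between the genotypes by 0.46 (SE 0.121, adjusted p = 0.0215 by the same test). It changed by -0.78 in WT and by -0.31 in KO, lower in 3 of 3 arrays of each.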

How the results depend on the processing

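Of the results for single genes past the threshold, 1214 of 1248 values with an array left out kept direction and call. Under other settings 480 of 517 did, and the rest of both kept direction. These counts pool changes over time with differences between genotypes. For a difference of 2 groups, most left-out arrays lie outside them and change only the shared spread. KO minus WT kept its call in 21 of 24 such fits for Epas1 at 0 h, 19 for Il4 at 4 h and 24 for Il4ra at 24 h. Fits with fewer arrays have less power by construction, and other causes were not tested. Low signals and 3 arrays a group limit what can be told apart.

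Differences between KO and WT at the floor (Il5, Il4 at 0, 24 and 72 h, and Csf2 before 72 h) were not tabulated. Those of the other genes and times that turned direction had not passed. With arrays 1 and 2 alone they were Csf2 at 72 h (-0.16), Epas1 at 24 h (0.09) and 72 h (0.01), Il3 at 4 h (0.08) and 72 h (0.15) and Maf at 72 h (0.09). When KO array 2 stood for all KO arrays they were Epas1 at 72 h (0.24), Il13 at 24 h (0.12) and 72 h (-0.04), Il3 at 0 h (0.02), 4 h (0.07) and 72 h (0.72), Il4ra at 4 h (0.09) and Maf at 24 h (-0.05) and 72 h (0.05). Epas1 at 72 h was 0.00 after quantile normalization, and Maf at 72 h 0.00 with averaged probe sets. With arrays left out, their ranges that crossed 0 were Csf2 at 72 h (-0.09 to 0.43), Epas1 at 24 h (-0.14 to 0.12) and 72 h (-0.12 to 0.10), Il10 at 0 h (-0.05 to 0.04), Il13 at 4 h (-0.06 to 0.13) and 24 h (-0.11 to 0.03), Il3 at 0 h (-0.09 to 0.01) and 72 h (-0.48 to 0.21), Il4ra at 4 h (-0.11 to 0.03) and Maf at 72 h (-0.11 to 0.05).

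Of the 10 genes, 1 differed between KO and WT at 0 h (0 to 1 with an array left out), 1 at 4 h (0 to 2) and 1 at 24 h (1 to 3), and the interaction at 24 h passed for 1 (0 to 2). Arrays 1 and 2 alone, and KO array 2 alone, gave 0 at 0, 4 and 24 h and 0 interactions at 4 and 24 h. A lone KO array is assumed to vary like the other groups. The Gata3 return in KO did not pass with it (0.64, adjusted p = 0.161). At 4 h the filter and the compared groups alone gave 0 and quantile normalization 2. At 24 h the filter, the compared groups alone and the replicate block gave 2, with Il3 at -0.75 (adjusted p = 0.0219) under the block. The Il3 change in KO at 24 h, 0.65, also passed under the block (adjusted p = 0.0202). Interactions numbered 2 at 24 h and 1 at 72 h after quantile normalization, and 0 at 24 h with the compared groups alone. WT changes at 4 h were 1, not 3, with arrays 1 and 2 alone, and KO changes at 72 h 5, not 8, with KO array 2 alone. In deviations from group means, all 24 arrays correlated best with the array of their own number in the other genotype at the same time.

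Over all genes, arrays left out gave 314 to 576 calls for KO against WT at 0 h (518 in full), 601 to 1063 at 4 h (917), 1269 to 2706 at 24 h (2501) and 700 to 1458 interactions at 24 h (1302). Arrays 1 and 2 alone gave 284, 562 and 707 at 0, 4 and 72 h (1405 in full at 72 h) and 76, 779 and 451 interactions at 4, 24 and 72 h (161, 1302 and 868 in full). KO array 2 alone gave 133, 238, 472 and 481 at the 4 times, 29, 152 and 260 interactions, and 4125, 4839 and 5821 KO changes from 0 h. The compared groups alone gave 276 at 0 h, 309 at 4 h and 79 interactions at 4 h.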
